A study of Homo sapiens with 6 samples.

Results

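The 40 interferon-stimulated genes (ISGs) described here were taken as a list of gene symbols: the transcription factors, RNA sensors and antiviral effectors that cells make in response to interferon. The list was made as a check for a response to hairpin RNA, and its rule is a list of symbols with no threshold on a measured value, although it was made with earlier results of these data known. 39 of the 40 were in the expression tables, among 15953 genes in all, and IFITM1 was not analysed here. The genes were measured by RNA-seq in the EJ line, bladder cancer cells of human origin that are established in culture, grown in RPMI-1640 with fetal bovine serum. There were 2 groups of 3 libraries. The shSTIL libraries came from cells stably infected with a lentivirus that knocks down STIL, a centriole duplication gene, and the shNC libraries from cells with the negative control lentivirus. Both groups carry a lentiviral hairpin vector and no uninfected EJ cells were analysed here, so a response that both vectors share cannot be seen. The sequence and number of the hairpins, and whether the stable cells were a pool or a clone, are not given in the sources used here. The labels name both groups by hairpin RNA, whereas the headings of the tables name them by siRNA.

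In textbook terms, long double-stranded RNA in the cytoplasm is recognised by RIG-I (DDX58) and MDA5 (IFIH1), which signal through MAVS to the kinase TBK1 and to IRF3 and lead to the release of type I interferon. Interferon binds IFNAR1 and IFNAR2, the kinases JAK1 and TYK2 phosphorylate STAT proteins such as STAT2, which joins IRF9 in the complex ISGF3. ISGF3 binds the interferon-stimulated response element (ISRE) of most ISGs, whereas the gamma-activated site (GAS) is found in genes such as IRF1. Hairpin vectors can set off this pathway, and ISGs are therefore often used as its readout.

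The promoters of the ISGs were searched for both elements, to show what the genes with opposite differences have in common. The window ran from 250 bases before to 50 bases after the transcription start in RefSeq (GRCh38.p14), and 33 of the 40 genes matched an entry. The ISRE was written as GAAANNGAAA on either strand (TTTCNNTTTC on the other) and the GAS as TTCNNNGAA, which reads the same on both strands. Matches of the 2 words were counted separately and may overlap each other. A gene counted as matched if the window of any of its listed starts had the word. The ISRE word was in the promoters of 23 of the 33 ISGs (69.7%), against 4.38% of all 27305 genes of the promoter table. The following stretches of 50 bases are written 5′ to 3′ on the strand of the gene, and capitals mark the ISRE word. The first 4 belong to ISGs that were lower in shSTIL cells.

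IFIT1 (chr10:89392494-89392543, plus strand): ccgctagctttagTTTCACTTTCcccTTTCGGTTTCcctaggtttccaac
IFI6 (chr1:27672267-27672316, minus strand): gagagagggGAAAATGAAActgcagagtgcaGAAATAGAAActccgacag
ISG15 (chr1:1013367-1013416, plus strand): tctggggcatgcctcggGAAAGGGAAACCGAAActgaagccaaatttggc
SAMD9 (chr7:93118086-93118135, minus strand): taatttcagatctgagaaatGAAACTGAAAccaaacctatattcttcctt

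The next 4 belong to ISGs that were higher in shSTIL cells.

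MX1 (chr21:41420549-41420598, plus strand): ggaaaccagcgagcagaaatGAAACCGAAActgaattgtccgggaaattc
ISG20 (chr15:88638927-88638976, plus strand): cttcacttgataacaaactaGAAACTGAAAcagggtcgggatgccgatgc
DDX60 (chr4:168318793-168318842, minus strand): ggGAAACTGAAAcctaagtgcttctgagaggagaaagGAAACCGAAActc
IFIH1 (chr2:162318811-162318860, minus strand): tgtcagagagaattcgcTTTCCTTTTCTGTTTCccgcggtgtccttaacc

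IFIT1 has matches 116 and 103 bases before its start, and ISG15 has overlapping matches 113 and 107 bases before its start. The match of MX1 shown lies 11 bases after the first of its listed starts, and another of its starts has a match at -196. The same word therefore stood in promoters of genes with either direction: it was found in 8 of 11 lower ISGs (72.7%), in 5 of 8 higher ISGs (62.5%) and in 9 of 13 ISGs that did not pass the test (69.2%) with a promoter entry (IFITM1 is the remaining gene of the 33). The GAS word was in 1 of the 11 lower, 5 of the 8 higher and 4 of the 13 other ISGs, against 9.38% of all genes. Capitals mark the GAS word in 2 of the higher genes, shown because both are transcription factors of the pathway.

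IRF1 (chr5:132490868-132490917, minus strand): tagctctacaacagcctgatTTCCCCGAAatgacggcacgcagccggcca
IRF9 (chr14:24161182-24161231, plus strand): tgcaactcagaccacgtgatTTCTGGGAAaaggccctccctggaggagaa

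A match says only that these letters are in the window, and binding was not measured.

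STIL lay between 5.98 and 6.10 log2 CPM in the shNC libraries and between 4.01 and 4.06 in the shSTIL libraries (log2 fold change -1.99 ± 0.05 SE, limma adjusted p = 6.1e-12). Log2 CPM is the log2 of the reads of a gene scaled to library size, which is first adjusted by a normalization factor for each library. The authors computed it with a prior count that pulls genes with few reads towards each other. The reads behind these values, recovered from their spacing, totalled 16214775 to 16431242 in shNC and 16734470 to 16901635 in shSTIL libraries. Differences are given as shSTIL minus shNC on the log2 CPM scale, and genes with a limma adjusted p under 0.01 (Benjamini-Hochberg, over all genes) are called higher or lower. By this rule 23.5% of all genes were higher and 23.6% were lower, with a median log2 fold change of 0.01 over all genes. Of 12 urothelial and epithelial markers 10 were in the tables: KRT18 had 10049 to 10825 reads in every library, whereas KRT5 had 0 to 1, CDH1 0 to 3 and UPK2 0 to 5, so the epithelial label was carried by the simple keratins. KRT8 was lower (-0.70 ± 0.03, limma adjusted p = 1.13e-09), as was UPK1B with 5 to 20 reads (-1.12 ± 0.28, limma adjusted p = 0.0035), whereas KRT7 was higher (0.49 ± 0.05, limma adjusted p = 1.98e-06). The summed level of these 10 was 1076 to 1133 CPM in shNC and 970 to 1002 CPM in shSTIL libraries. The 3 mesenchymal markers VIM, FN1 and CDH2 summed to 1543 to 1583 CPM in shNC and 950 to 971 CPM in shSTIL libraries, with VIM and FN1 lower. Of 9 markers of leukocytes and plasmacytoid dendritic cells 4 were in the tables, and their sum was 12.8 to 13.8 CPM in shNC and 14.5 to 16.9 CPM in shSTIL libraries. Most of this sum was CD68, with 173 to 250 reads and a difference of 0.25 ± 0.09 (limma adjusted p = 0.0322); ITGAM had 10 to 30 reads and differed by 0.69 ± 0.26 (limma adjusted p = 0.0344). Neither passed the test, although every shSTIL library was above every shNC library for both. The groups did not overlap for 60.3% of all genes. IL3RA had 5 to 11 reads and a difference in the other direction, with overlapping groups (-0.41 ± 0.26, limma adjusted p = 0.201), and CD14 had 1 to 4 reads. The part of these differences in the results below was not tested.

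The ISGs did not move as 1 block. In bulk RNA, fewer cells that make a transcript and less of it per cell cannot be told apart. Of the 39 genes, 9 were higher (23.1%), 11 were lower (28.2%) and 19 did not pass the test, close to the 23.5% and 23.6% of all genes. Their median log2 fold change was -0.16, beside 0.01 for all genes, and the median of its absolute size was 0.40, beside 0.30. All 20 called ISGs averaged at least 1 log2 CPM over the 6 libraries. Among the 27 ISGs above that level 33.3% were higher and 40.7% were lower, beside 30.5% and 31.4% of the 11319 genes above it. The groups did not overlap for 25 ISGs (64.1%), beside 60.3% of all genes. The higher ISGs ran from 0.14 for SP100 to 1.04 for MX1, and the lower ISGs from -0.29 for STAT2 to -1.17 for IFIT1. Without 1 library in turn the count of higher ISGs was 7, 5 and 5 (without shNC replicates 1, 2 and 3) and 5, 6 and 5 (without shSTIL replicates 1, 2 and 3), and that of lower ISGs 6, 7 and 7, then 7, 5 and 6. Under every alternative setting 8 genes kept their call, namely IFIT1, OAS3, SAMD9 and IFITM3 as lower and MX1, ISG20, IRF1 and IRF9 as higher.

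**Figure D1:**
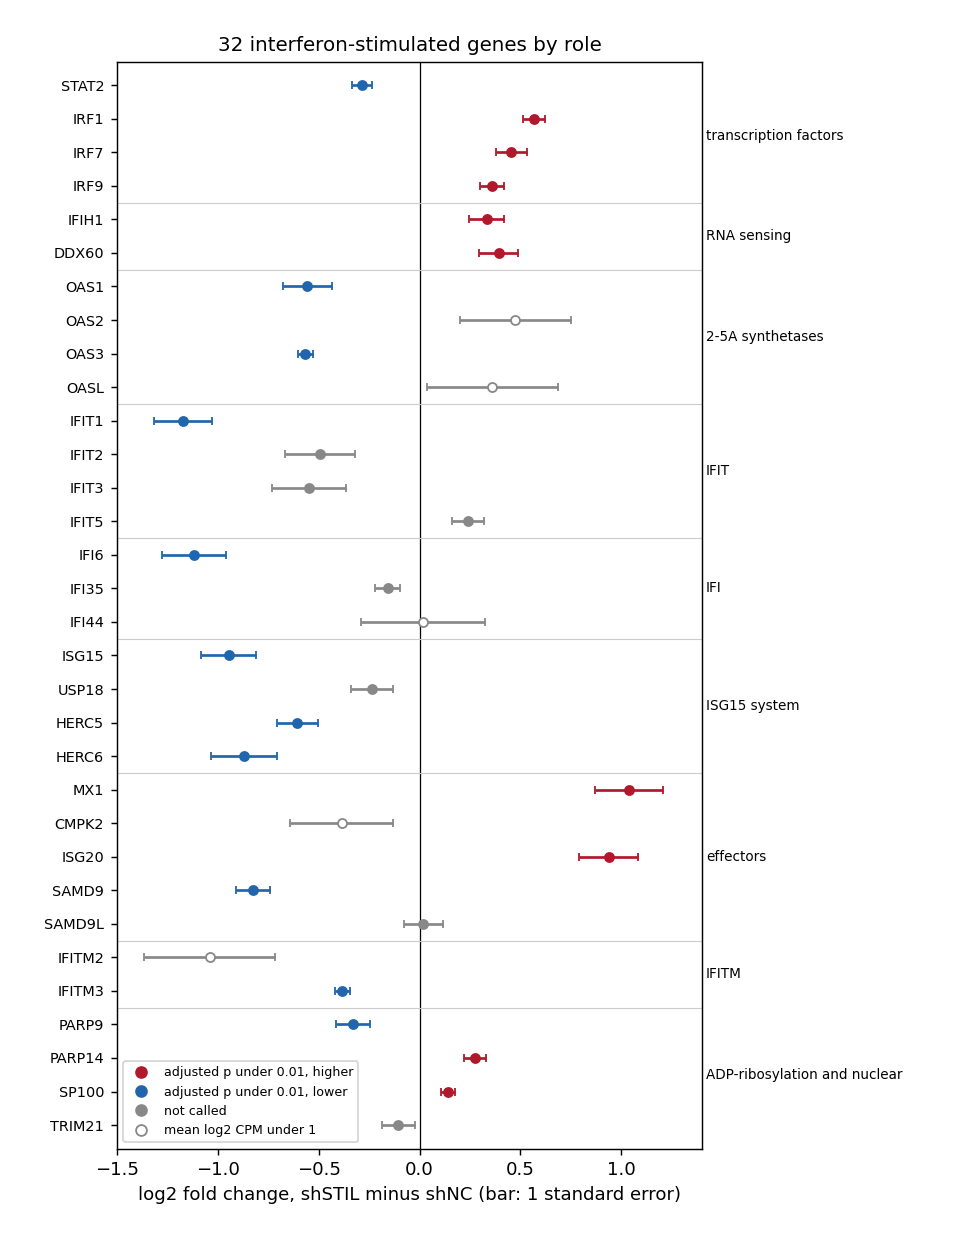
Log2 fold change (shSTIL minus shNC, points) of the 32 ISGs with more than 3 reads in at least 1 library, grouped by role, with bars of 1 standard error from limma. Higher genes are red and lower genes blue at an adjusted p under 0.01, grey genes did not pass, and open points average under 1 log2 CPM. Differences reach from -1.17 for IFIT1 to 1.04 for MX1.

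Among the transcription factors, 3 of 4 were higher and STAT2 was lower. All 4 averaged at least 1 log2 CPM, where 30.5% of all genes were higher and 31.4% lower. STAT2, the ISGF3 subunit with the strong activation domain, had 5.65, 5.61 and 5.59 log2 CPM in shNC and 5.40, 5.34 and 5.25 in shSTIL libraries. IRF9, the DNA-binding subunit of ISGF3, had 4.26, 4.23 and 4.31 in shNC and 4.66, 4.59 and 4.64 in shSTIL libraries. Every shSTIL library was below every shNC library for STAT2 and above it for IRF9, with log2 fold changes of -0.29 ± 0.05 (SE, limma adjusted p = 0.00024) and 0.36 ± 0.06 (limma adjusted p = 0.000184). Such a lack of overlap was seen for 60.3% of all genes. STAT2 lost its call without shNC replicate 1, shNC replicate 2 or shSTIL replicate 2 (limma adjusted p of 0.0108 to 0.013). The log2 difference IRF9 minus STAT2 within each library therefore moved by 0.65, from -1.35 ± 0.06 (SD, n = 3) to -0.70 ± 0.08. The exact permutation test of that pair gave p = 0.1, the smallest that 3 libraries against 3 allow, and the pair was chosen after its values were seen.

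IRF1, a GAS-driven factor that acts upstream of many ISGs, had 4.72, 4.78 and 4.63 log2 CPM in shNC libraries and 5.27, 5.28 and 5.27 in shSTIL libraries. The groups were far apart compared with the spread within them, and IRF1 was 1.48-fold higher (log2 fold change 0.57 ± 0.05 SE, limma adjusted p = 9.81e-07). IRF7, the factor that amplifies interferon alpha production, had 4.84, 4.58 and 4.51 in shNC and 5.13, 5.14 and 5.04 in shSTIL libraries. Its shNC replicate 1 lay nearest to the shSTIL libraries, and the log2 fold change was 0.45 ± 0.08 (limma adjusted p = 0.000204). The call of IRF7 held without that library and was lost without any other (limma adjusted p of 0.0195 to 0.0322), and it was also lost without the trend (limma adjusted p = 0.0119).

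Both RNA-sensing ISGs were modestly higher, beside 30.5% of all genes averaging at least 1 log2 CPM. IFIH1 encodes MDA5, the sensor of long double-stranded RNA, and had 3.78, 3.97 and 4.11 log2 CPM in shNC and 4.35, 4.28 and 4.23 in shSTIL libraries. DDX60, a helicase that has been linked to RIG-I signalling, had 3.33, 3.36 and 3.21 in shNC and 3.78, 3.53 and 3.77 in shSTIL libraries. The groups did not overlap for either gene, and the log2 fold changes were 0.33 ± 0.09 for IFIH1 (limma adjusted p = 0.00504) and 0.39 ± 0.10 for DDX60 (limma adjusted p = 0.00389). Both calls were near the threshold: IFIH1 lost its call without any 1 of the 6 libraries (limma adjusted p of 0.011 to 0.0824), and DDX60 without each but shSTIL replicate 2 (limma adjusted p of 0.0255 to 0.0512). Without the trend of variance on mean both calls were lost as well (limma adjusted p = 0.0317 and 0.0147).

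The 2′,5′-oligoadenylate synthetases make the messenger that activates RNase L when they bind double-stranded RNA. OAS3, which binds the longest duplexes, had 2354, 2426 and 2415 reads in shNC and 1771, 1752 and 1643 reads in shSTIL libraries. It was the ISG with the smallest adjusted p, with a log2 fold change of -0.57 ± 0.04 (SE, limma adjusted p = 1.81e-08) and 67.5% of the shNC level. OAS1 had 140, 141 and 151 reads in shNC and 102, 119 and 91 in shSTIL libraries, with a similar log2 fold change of -0.56 ± 0.12 (limma adjusted p = 0.00136). The groups did not overlap for either gene, and the call of OAS1 was lost without each library but shSTIL replicate 2 (limma adjusted p of 0.0186 to 0.027). OAS2 had 2 to 3 reads in shNC and 3 to 6 in shSTIL libraries, and OASL 2 to 7 and 4 to 7 reads, so a difference was not detectable at this depth for either. OAS1, OAS3 and OAS2 lie in this order within 105 kb of chromosome 12.

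The IFIT genes encode tetratricopeptide proteins, of which IFIT1 binds RNA with an unmethylated cap and works in a complex with IFIT2 and IFIT3. IFIT1 had 120, 117 and 119 reads in shNC libraries and 51, 66 and 49 in shSTIL libraries. These were 2.93, 2.87 and 2.93 log2 CPM against 1.63, 1.98 and 1.59, the largest difference of any ISG on the list that passed the test (log2 fold change -1.17 ± 0.14 SE, limma adjusted p = 1.06e-05). IFIT1 was thus at 44.4% of its shNC level. IFIT2 had 1.75, 1.83 and 2.18 log2 CPM in shNC and 1.58, 1.39 and 1.31 in shSTIL libraries (-0.49 ± 0.17, limma adjusted p = 0.0264). IFIT3 had 1.88, 1.90 and 2.24 in shNC and 1.15, 1.54 and 1.67 in shSTIL libraries (-0.55 ± 0.18, limma adjusted p = 0.0206). Neither passed the threshold, although their groups did not overlap either. IFIT5, which lies downstream of the other IFIT genes in the cluster, had 3.71, 3.93 and 3.82 in shNC and 4.08, 4.06 and 4.03 in shSTIL libraries (0.24 ± 0.08, limma adjusted p = 0.0195), so every shSTIL library was above every shNC library. The log2 difference IFIT5 minus IFIT1 within each library was 0.91 ± 0.14 (SD, n = 3) in shNC and 2.32 ± 0.22 in shSTIL libraries, a move of 1.41. The exact permutation test gave p = 0.1, the smallest possible, and the pair was chosen after its values were seen. The 4 genes lie within 119 kb of chromosome 10 (GRCh38.p14, 89302046 to 89420997), and RSEM divides reads that similar family members share. The reads of the 4 genes were whole to within 0.005, except IFIT3 in shNC replicate 1 (56.99). Whether such division affects the IFIT values was not tested.

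The promoter of IFIT5 also holds the ISRE word, 45 and 19 bases before its start, and is shown because this gene differed in sign from its neighbours.

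IFIT5 (chr10:89414516-89414565, plus strand): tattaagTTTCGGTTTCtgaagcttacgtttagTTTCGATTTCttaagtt

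Of the 4 listed genes of ISG15 and its conjugation, ISG15, HERC5 and HERC6 were lower and USP18 did not pass the test. All 4 averaged at least 1 log2 CPM, where 31.4% of all genes were lower. ISG15, a ubiquitin-like protein that is joined to newly made proteins, had 180, 145 and 165 reads in shNC and 76, 91 and 101 in shSTIL libraries. Its level in shSTIL cells was 51.9% of control (log2 fold change -0.95 ± 0.13 SE, limma adjusted p = 4.2e-05), and the call was lost only without shSTIL replicate 2 (limma adjusted p = 0.0106). HERC5, the main ISG15 ligase in human cells, had 3.87, 3.67 and 4.03 log2 CPM in shNC and 3.22, 3.25 and 3.28 in shSTIL libraries. HERC6, its neighbour on chromosome 4, had 2.18, 2.22 and 2.47 in shNC and 1.61, 1.22 and 1.44 in shSTIL libraries. Neither gene overlapped between the groups, and the log2 fold changes were -0.61 ± 0.10 for HERC5 (limma adjusted p = 0.000162) and -0.87 ± 0.16 for HERC6 (limma adjusted p = 0.000462). HERC5 kept its call without shNC replicate 2 or 3 and HERC6 without shNC or shSTIL replicate 1, and each lost it without any other library (limma adjusted p of at most 0.0157). USP18, the protease that removes ISG15 and restrains IFNAR2 signalling, had 3.61, 3.46 and 3.50 in shNC and 3.09, 3.40 and 3.37 in shSTIL libraries. Its groups did not overlap, but the difference of -0.24 ± 0.10 did not pass the test (limma adjusted p = 0.0707). UBA7, the ISG15-activating enzyme and not on the list of 40, was higher by 0.70 ± 0.18 (limma adjusted p = 0.00544). It had 21, 26 and 24 reads in shNC and 43, 38 and 45 in shSTIL libraries, a mean of 1.01 log2 CPM. Its call was not examined in fits without 1 library. UBE2L6, the ISG15-conjugating enzyme, named after its values were seen, overlapped between the groups (-0.03 ± 0.05, limma adjusted p = 0.587). Of the genes of this system named here, only UBA7, outside the list of 40, was called higher.

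Of the 5 IFI genes, IFI6 was lower and the others did not pass, where 23.6% of all genes were lower. IFI6, a small hydrophobic protein of the endoplasmic reticulum and mitochondria, had 215, 148 and 204 reads in shNC and 102, 75 and 96 in shSTIL libraries. The lowest shNC library, replicate 2, was still above the highest shSTIL library, and shSTIL cells had 46.1% of the shNC level (log2 fold change -1.12 ± 0.16 SE, limma adjusted p = 4.27e-05). This call was lost in 5 of the 6 fits without 1 library, the exception being the fit without shNC replicate 2, with limma adjusted p between 0.0115 and 0.0168 in those 5. IFI35 had 4.48, 4.39 and 4.49 log2 CPM in shNC and 4.28, 4.28 and 4.32 in shSTIL libraries (-0.16 ± 0.06, limma adjusted p = 0.0446). IFI44 had 2 to 7 reads in shNC and 4 to 5 in shSTIL libraries. IFI27, often among the most strongly induced ISGs, and IFI44L had 0 to 3 and 0 to 1 reads in the 6 libraries.

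Effector genes differed in both directions. MX1, a dynamin-like GTPase that blocks many RNA viruses, had 24, 24 and 25 reads in shNC and 53, 59 and 54 in shSTIL libraries. ISG20, an exonuclease that degrades single-stranded RNA, had 54, 46 and 59 reads in shNC and 102, 109 and 117 in shSTIL libraries. Replicates of 1 group were close to each other and the groups were apart for both genes. MX1 was 2.05-fold higher (log2 fold change 1.04 ± 0.17 SE, limma adjusted p = 0.000136) and ISG20 1.91-fold higher (0.94 ± 0.15, limma adjusted p = 9.63e-05). MX1 thus moved opposite to ISG15: the log2 difference MX1 minus ISG15 within each library went from -2.65 ± 0.16 (SD, n = 3) in shNC to -0.66 ± 0.19 in shSTIL libraries, a move of 1.98. The exact permutation test gave p = 0.1, the smallest possible, for this pair, which was chosen after its values were seen.

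SAMD9, a restriction factor for poxviruses, had 4.25, 4.26 and 4.26 log2 CPM in shNC and 3.38, 3.34 and 3.58 in shSTIL libraries. Its paralog SAMD9L, the adjacent gene on chromosome 7, had 3.66, 3.68 and 3.69 in shNC and 3.74, 3.50 and 3.85 in shSTIL libraries. SAMD9 was lower by -0.83 ± 0.08 (SE, limma adjusted p = 1.67e-06), or 56.4% of control, whereas SAMD9L overlapped between the groups (0.02 ± 0.10, limma adjusted p = 0.888). Within each library SAMD9L minus SAMD9 went from -0.58 ± 0.0047 (SD, n = 3) to 0.26 ± 0.10, a move of 0.84, with an exact permutation p = 0.1. This pair was also chosen after its values were seen. RSEM divides reads that fit both paralogs, and the reads of both were whole to within 0.005 in every library. The effect of such division was not tested.

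**Figure D2:**
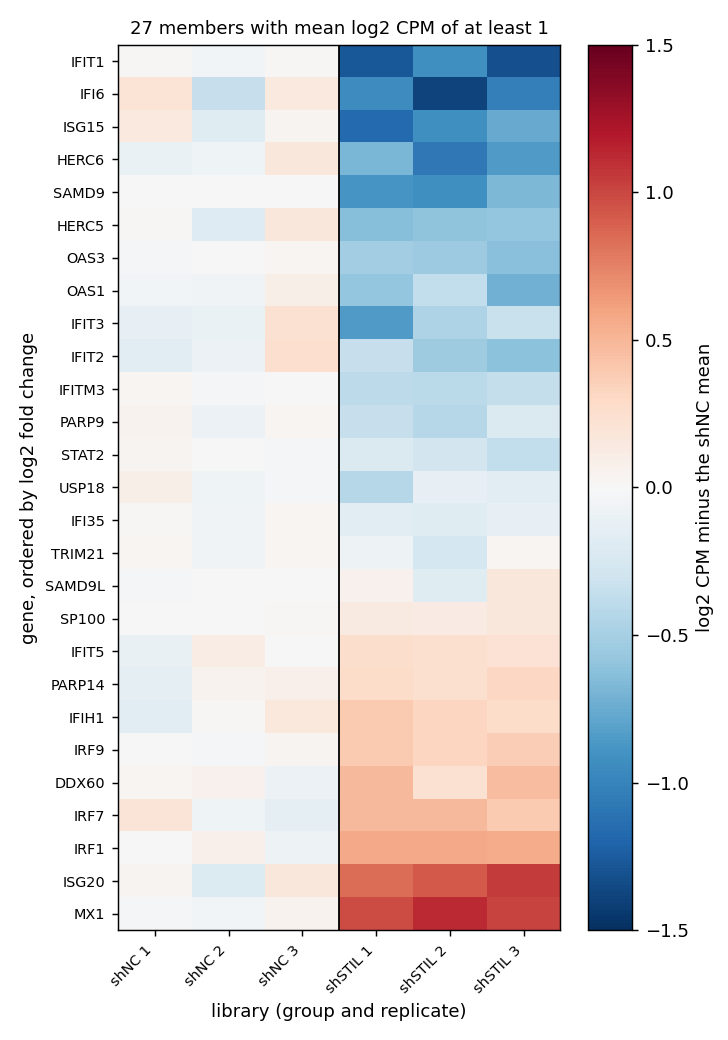
Heat map of the 27 ISGs averaging at least 1 log2 CPM (rows, ordered by log2 fold change) in the 6 libraries (columns); colour is the log2 CPM minus the mean of the 3 shNC libraries. The 3 shSTIL libraries are blue for genes such as IFIT1 (-1.17) and ISG15 (-0.95) and red for ISG20 (0.94) and MX1 (1.04).

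Of the other effectors, CMPK2, a mitochondrial nucleotide kinase, had 13, 14 and 20 reads in shNC and 16, 12 and 9 in shSTIL libraries (-0.39 ± 0.26, limma adjusted p = 0.228). MX2, RSAD2, BST2, XAF1 and EPSTI1 had at most 3 reads in every library. Together with IFI27 and IFI44L, these 7 ISGs were at or below the level of 3 reads in every library, so no fold change is given for them. The list of 40 thus includes several strongly inducible genes that had almost no reads in either group.

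The IFITM proteins block the entry of enveloped viruses at the cell membrane and in endosomes. IFITM3 had 6.61, 6.55 and 6.59 log2 CPM in shNC and 6.19, 6.18 and 6.23 in shSTIL libraries. The groups were separated by more than the spread within either, and IFITM3 was lower by -0.38 ± 0.04 (SE, limma adjusted p = 7.86e-07). IFITM2 had 15, 8 and 15 reads in shNC and 9, 5 and 3 in shSTIL libraries (-1.04 ± 0.32, limma adjusted p = 0.0146). Its groups overlapped. IFITM2 and IFITM3 are near-identical in sequence, and RSEM divides reads that fit both. The reads of both genes were whole to within 0.005 in every library. The effect of any division of reads between them was not tested.

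PARP9 and PARP14 are ADP-ribosyltransferase family genes that differed in sign. PARP9, which acts together with the ubiquitin ligase DTX3L, had 4.09, 3.95 and 4.07 log2 CPM in shNC and 3.69, 3.62 and 3.82 in shSTIL libraries. PARP14 had 5.45, 5.63 and 5.66 in shNC and 5.86, 5.82 and 5.89 in shSTIL libraries. PARP9 was lower (-0.33 ± 0.08 SE, limma adjusted p = 0.00392) and PARP14 higher (0.28 ± 0.06, limma adjusted p = 0.000755), and the groups overlapped for neither. PARP9 lost its call without any 1 library (limma adjusted p of 0.0108 to 0.0388), and PARP14 without each but shNC replicate 1 (limma adjusted p of 0.0135 to 0.0468). Without the trend both were lost (limma adjusted p = 0.013 and 0.0204), and PARP9 also with quantile normalization (limma adjusted p = 0.016) and DESeq2 (adjusted p = 0.0113). DTX3L, named after its values were seen, starts within the printed window of PARP9 on the opposite strand and was higher by 0.32 ± 0.07 (limma adjusted p = 0.00167). The log2 difference DTX3L minus PARP9 within each library went from 0.21 ± 0.09 (SD, n = 3) to 0.86 ± 0.11, a move of 0.65 with an exact permutation p = 0.1. Whether the counting used strand is not given in the sources used here. The reads of PARP9 and DTX3L were whole to within 0.005 except in shNC replicate 2, with 250.16 and 311.84. How reads from overlapping parts of these genes were assigned was not tested.

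The windows of PARP9 and PARP14 are shown because genes with the same word, within 203 kb of chromosome 3, differed in sign. The window of PARP9 is from the listed start that has the word, and its other listed start has none.

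PARP9 (chr3:122564312-122564361, minus strand): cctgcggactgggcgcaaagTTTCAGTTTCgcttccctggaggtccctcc
PARP14 (chr3:122680790-122680839, plus strand): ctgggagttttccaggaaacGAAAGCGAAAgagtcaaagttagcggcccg

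SP100, a nuclear body protein, had 6.27, 6.27 and 6.30 log2 CPM in shNC and 6.42, 6.41 and 6.45 in shSTIL libraries, a small difference of 0.14 ± 0.03 (SE, limma adjusted p = 0.00309) with no overlap between the groups. The call of SP100 was lost when variances were estimated without the trend (limma adjusted p = 0.0184) and with DESeq2 (adjusted p = 0.0115). TRIM21, a cytosolic antibody receptor and ubiquitin ligase, had 4.16, 4.08 and 4.16 in shNC and 4.05, 3.87 and 4.16 in shSTIL libraries. Its groups overlapped (-0.11 ± 0.08, limma adjusted p = 0.311).

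**Figure D3:**
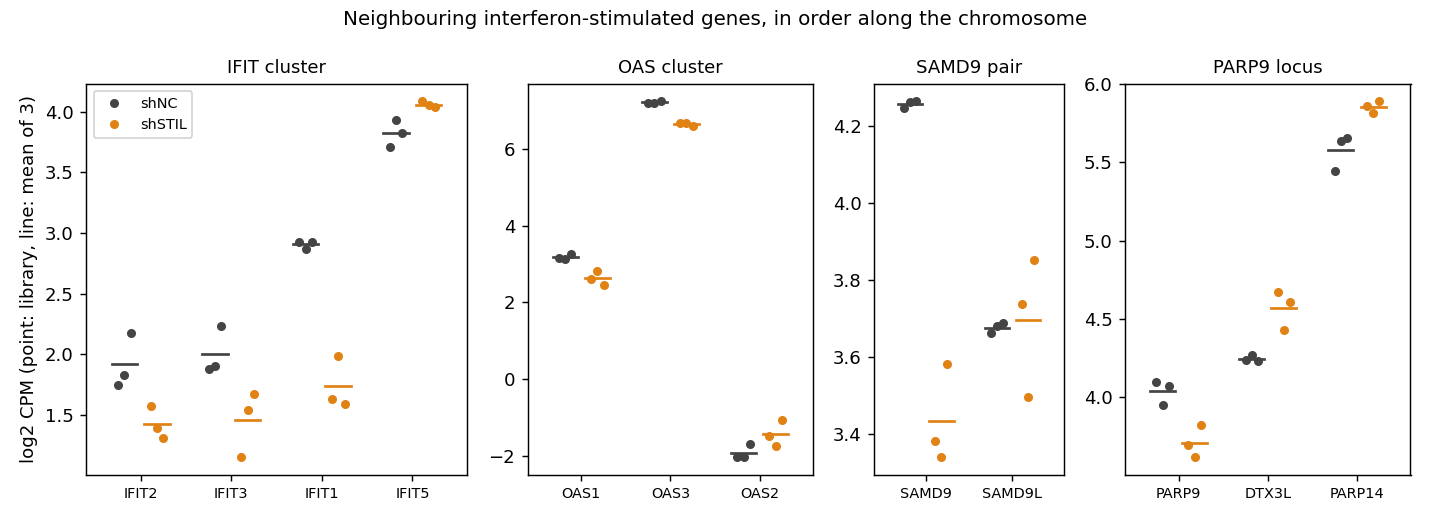
Log2 CPM of ISGs of the same chromosomal region, not all of them adjacent, in their order along the chromosome. Each library is 1 point (grey shNC, orange shSTIL), with a line at the mean of 3. IFIT1, OAS3, SAMD9 and PARP9 lie lower in shSTIL libraries, while SAMD9L overlaps, DTX3L and PARP14 lie higher, and IFIT5 differs by 0.24 without passing the test.

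Sensors of double-stranded RNA were compared next, from a list that holds genes outside the 40. DDX58 had 5.27, 5.45 and 5.38 log2 CPM in shNC and 5.43, 5.33 and 5.31 in shSTIL libraries. EIF2AK2, the kinase PKR, had 6.50, 6.58 and 6.59 in shNC and 6.50, 6.46 and 6.47 in shSTIL libraries. Their differences were -0.01 ± 0.06 (limma adjusted p = 0.883) and -0.08 ± 0.04 (limma adjusted p = 0.0773). TLR3, the endosomal sensor, differed by 0.01 ± 0.21 (limma adjusted p = 0.967), and DHX58 had at most 3 reads in every library. Of the 21 genes of RNA sensing and signalling in the tables, 5 were higher (23.8%) and 4 lower (19%), beside 23.5% and 23.6% of all genes, with a median log2 fold change of 0.09. The largest differences among called genes averaging at least 1 log2 CPM were those of TRAF3, an adaptor of this signalling (0.80 ± 0.03), TRIM25, a RIG-I ubiquitin ligase (0.63 ± 0.03), ADAR, which edits double-stranded RNA (-0.60 ± 0.04), and RNF135, another RIG-I ligase (0.52 ± 0.09). The 4 genes passed the test (limma adjusted p of 0.000134 or less). Among the 18 genes of this list above that level, 27.8% were higher and 22.2% lower, beside 30.5% and 31.4% of all genes.

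Of the interferon genes on the list, only IFNE and IFNL2 had values, with 2 to 4 and 0 to 1 reads in the 6 libraries. IFNB1 and the other interferon genes on the list were not analysed here, so nothing is said of their level. The receptor and JAK-STAT list held 18 genes in the tables, of which 11 were higher, with a median log2 fold change of 0.36. Of its 16 genes averaging at least 1 log2 CPM, 68.8% were higher, beside 30.5% of all genes above that level. IFNAR1 had 6.46, 6.51 and 6.43 log2 CPM in shNC and 6.75, 6.80 and 6.74 in shSTIL libraries. IFNAR2 had 5.99, 6.06 and 6.09 in shNC and 6.68, 6.68 and 6.59 in shSTIL libraries. Both chains of the type I receptor were therefore higher, by 0.30 ± 0.04 (limma adjusted p = 1.05e-05) and 0.60 ± 0.04 (limma adjusted p = 3.86e-08), while the ISGs on the list of 40 went both ways. Of 6 interferon receptor chains in the list 5 were higher, and the 3 kinases JAK1, JAK2 and TYK2 were all higher, groups that were formed after their values were seen. Of the negative regulators of this signalling, SOCS3 (0.69 ± 0.04, limma adjusted p = 3.03e-09) and PTPN2 (0.60 ± 0.06, limma adjusted p = 8.98e-07) were higher. SOCS1 (-0.41 ± 0.13, limma adjusted p = 0.0193) and PIAS1 (-0.19 ± 0.06, limma adjusted p = 0.0152), named after their values were seen, did not pass the test, and their differences were negative with no overlap between the groups.

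Of 44 other interferon-induced genes in the tables, 10 were higher (22.7%), 15 were lower (34.1%) and 19 did not pass, beside 23.5% and 23.6% of all genes, with a median log2 fold change of -0.15. Among its 35 genes averaging at least 1 log2 CPM, 28.6% were higher and 37.1% lower. The shares of all genes above that level were 30.5% and 31.4%. This wider list also held genes in both directions. Its largest differences among called genes averaging at least 1 log2 CPM were GBP3, a guanylate-binding GTPase (1.15 ± 0.08), TRIM34 (-0.95 ± 0.21), SLFN5 (0.91 ± 0.07) and PHF11 (0.82 ± 0.16), with limma adjusted p of 0.0017 or less. GBP2, called lower at 9 to 33 reads (-1.01 ± 0.25, limma adjusted p = 0.00359), averaged less than that and was named after its values were seen. The small RNA pathway, which processes a hairpin into a guide strand, had 8 higher (57.1%), 3 lower (21.4%) and 3 other genes of 14, all averaging at least 1 log2 CPM, where 30.5% and 31.4% of all genes were higher and lower. The median log2 fold change of the 14 was 0.24. AGO2, the Argonaute that cuts a target RNA, was higher by 0.75 ± 0.03 (limma adjusted p = 8.57e-10) and AGO4 by 0.65 ± 0.06 (limma adjusted p = 3.05e-07). TNRC6C, a silencing scaffold, was higher by 0.92 ± 0.12 (limma adjusted p = 2.02e-05) and the helicase MOV10 lower by -0.64 ± 0.04 (limma adjusted p = 3.85e-08).

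**Figure D4:**
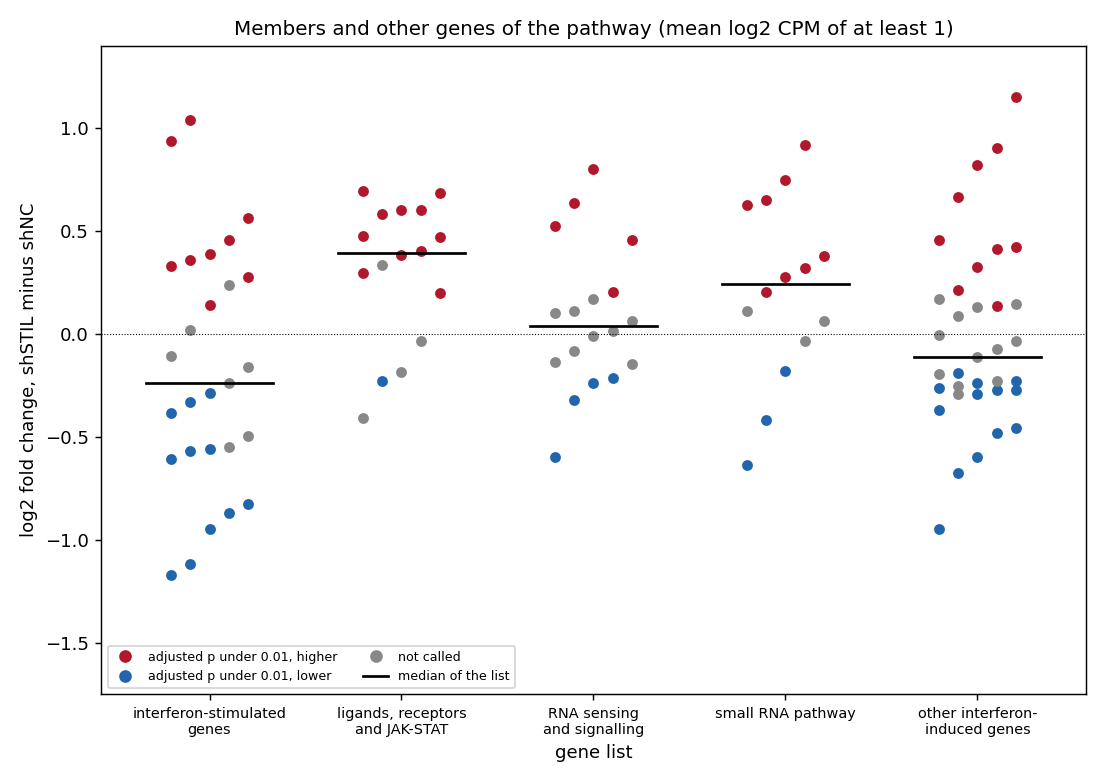
Log2 fold change (shSTIL minus shNC) of each gene averaging at least 1 log2 CPM in the ISG list and 4 other lists of the pathway; red and blue points passed the test as higher and lower, and lines mark the median of those genes. The median was -0.24 for the ISGs and 0.39 for ligands, receptors and JAK-STAT.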

How the data were processed

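RNA-seq was analysed in 6 libraries of EJ cells, 3 shNC and 3 shSTIL. Per the paper's methods and the submitters' processing notes, the authors sequenced on a BGISEQ-500 instrument, mapped reads with Bowtie2 (hg38) and obtained gene-level read estimates from RSEM; versions and strandedness are not given in the sources used here. The deposited values are log2 CPM of 15953 genes for 6 libraries, which the authors computed with edgeR, and estimated (expected) counts of 15957 genes, deposited for shNC replicate 1 and the 3 shSTIL libraries and used here to check depth. Read numbers inferred from the spacing of low log2 CPM values lay within 0.0216 reads of these deposited estimated counts, and 87.0 to 87.4% of the values were whole to within 0.005 of a read. The design had assumed whole counts, and the count tables hold estimated counts.

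The groups were compared on the deposited log2 CPM with limma 3.58.1 in R 4.3.3 (lmFit, then eBayes with a trend of variance on mean), with Benjamini-Hochberg adjustment over all genes and a threshold of 0.01. Pairs of genes were compared by exact permutation (two-sided, 20 possible labellings). Alternatives were DESeq2 1.42.0 and the quasi-likelihood test of edgeR 4.0.16 on recovered reads rounded to whole numbers, no trend, other scalings, a filter at a mean log2 CPM of 1, a prior count of 0.25, a threshold of 0.05, the replicate block and the omission of each library. The fits were tested on simulated data, where limma recovered fewer changed genes and made more false calls than edgeR. That simulation gave all genes the same dispersion and changed few of them, whereas 7509 genes were called here. Its outcome therefore cannot rank the tests for these data. Replicate numbers did not pair the libraries (correlations of deviations -0.12, -0.06 and -0.11). Nothing states that replicates were separate cultures, so p-values measure only the spread between these libraries.

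Genes named are the members of the list, STIL, RNA sensors and signalling genes set by name, and up to 4 called genes per other list with the largest difference and a mean log2 CPM of at least 1; DTX3L, UBE2L6, SOCS1, PIAS1, GBP2, the markers and JAK1, JAK2 and TYK2 are named outside this rule. The members and lists were chosen with earlier results of these data known. Promoter sequences are from RefSeq (GRCh38.p14). A gene set by name in the rule is not reported here.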

Additional observations from a re-analysis of the deposited data

How the results depend on the processing

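Without 1 library in turn, 5 to 7 ISGs were higher and 5 to 7 lower (beside 9 and 11 with all 6), and 4900 to 5638 of all genes were called (beside 7509, with 4900 without shSTIL replicate 3); these fits have fewer libraries. Estimating each variance without the trend left 4 higher and 10 lower ISGs, and the cause was not tested. With genes of a mean log2 CPM of at least 1, the median of the ISGs was -0.24 beside -0.16, since 12 genes with few reads leave the list; without 1 library it was -0.17 to -0.13. The remaining settings gave 6 to 10 higher and 10 to 15 lower ISGs. Replicate numbers did not pair the libraries, and with the replicate block 6 ISGs were higher, 11 lower and 6898 of all genes called; IFIH1, DDX60 and SP100 lost their call there (limma adjusted p = 0.0156, 0.0117 and 0.0101). STIL kept its direction and call, between -2.01 and -1.95.

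Of the 20 called ISGs, 8 kept their call under all 15 alternatives, 11 lost it in at least 1 fit without a library, 6 under another alternative, and 0 changed sign. IFI44, with at most 7 reads, went from 0.02 to -0.11 with quantile normalization, -0.085 with edgeR and -0.083 with DESeq2, and ranged from -0.28 to 0.30 without 1 library. SAMD9L went from 0.02 to between -0.060 and 0.12 without 1 library, with negative values (-0.0024 and -0.060) without shSTIL replicates 1 and 3. The causes were not tested. Depth limits the 7 ISGs with at most 3 reads in every library.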
